A study of Mus musculus with 4 samples.

Results

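Runx3-bound regions were examined at 7 genes that encode MAF, BACH and NFE2L2 transcription factors, namely Maf, Mafk, Mafg, Maff, Bach1, Bach2 and Nfe2l2. A bound region, or peak, was counted for a gene when its centre lay in the gene body or within 100 kb of it. Of the 15121 peaks in the list 53 were selected in this way, or 0.351%, and each of the 7 genes had at least 1 of them. The peaks come from splenic CD11chiMHCII+CD4+ DC of C57BL/6 mice, and the labels give approximately 15 pooled animals for each sample. ChIP-seq with a home-made polyclonal Runx3 antibody was done in 2 biological replicates, and whole cell extract chromatin gave 2 input controls, 1 of which carries the strain label C57BL/7. The labels name no treatment and no genotype beyond the strain, so the data describe where Runx3 was bound and hold no comparison between conditions. A single list was called on the pooled samples, so no value has a replicate error. The score of a peak is the number that MACS2 wrote, in a unit that is not stated, and it served to rank peaks within the list. The percentile of a peak is the share of all peaks with an equal or lower score.

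MAF and BACH proteins share a basic leucine zipper through which they pair and bind DNA. The large MAF proteins, such as that of Maf, carry a transactivation domain, whereas the small MAF proteins of Mafk, Mafg and Maff lack one and act as partners. Their partners are the cap'n'collar factors, among them Nfe2l2, also known as NRF2, which activates antioxidant genes when KEAP1 releases it, and Bach1 and Bach2, which repress many of the same elements. Maf is known for its role in macrophage identity, Bach1 for haem-sensitive repression of Hmox1, and Bach2 for repression in lymphocytes. RUNX proteins recognise TGTGGT, and a variant with C in the third position, TGCGGT, is also bound.

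The strongest peak of each gene is shown by up to 201 bases of the plus strand of mm9, centred on the TGTGGT nearest to the peak centre or, where the peak held none, on the peak centre. These stretches show which of the strongest regions hold a RUNX hexamer. Capitals mark TGTGGT or the variant TGCGGT, read on either strand, so that the reverse complement of each is in capitals as well. Stretches were kept within the peak, so that the one in the Maff window ends at the peak's edge and its hexamer lies off the middle. Annotated UTR bases were left out.
Maf, upstream of the TSS, chr8:118231956-118232156: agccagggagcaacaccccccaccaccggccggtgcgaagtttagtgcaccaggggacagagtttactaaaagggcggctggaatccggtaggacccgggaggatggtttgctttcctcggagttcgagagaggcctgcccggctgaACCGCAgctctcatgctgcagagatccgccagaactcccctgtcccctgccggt
Mafk, intron 1, chr5:140267938-140268138: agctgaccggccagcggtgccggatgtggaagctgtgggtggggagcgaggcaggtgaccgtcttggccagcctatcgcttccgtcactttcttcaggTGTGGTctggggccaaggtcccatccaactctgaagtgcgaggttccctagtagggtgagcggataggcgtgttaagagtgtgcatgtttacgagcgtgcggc
Mafg window, at the P4hb TSS, chr11:120434912-120435112: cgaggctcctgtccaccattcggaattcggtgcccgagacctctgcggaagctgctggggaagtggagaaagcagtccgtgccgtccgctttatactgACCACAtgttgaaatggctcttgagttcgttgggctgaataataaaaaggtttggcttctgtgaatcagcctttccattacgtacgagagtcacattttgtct
Maff window, at the Pla2g6 TSS, chr15:79159056-79159256: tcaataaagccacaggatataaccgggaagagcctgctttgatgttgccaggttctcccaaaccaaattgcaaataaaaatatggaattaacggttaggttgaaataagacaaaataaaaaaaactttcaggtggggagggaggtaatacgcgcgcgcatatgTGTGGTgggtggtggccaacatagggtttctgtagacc
Bach1, far upstream, chr16:87625563-87625763: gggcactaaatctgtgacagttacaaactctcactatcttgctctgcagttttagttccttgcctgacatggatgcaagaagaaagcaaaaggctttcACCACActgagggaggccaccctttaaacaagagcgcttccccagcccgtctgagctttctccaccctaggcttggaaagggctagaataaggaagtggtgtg
Bach2 window, at the Casp8ap2 TSS, chr4:32702087-32702287: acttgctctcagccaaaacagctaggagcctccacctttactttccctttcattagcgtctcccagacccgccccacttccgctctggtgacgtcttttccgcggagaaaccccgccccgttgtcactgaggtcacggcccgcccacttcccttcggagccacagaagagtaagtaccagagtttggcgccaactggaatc
Nfe2l2, far upstream, chr2:75601418-75601618: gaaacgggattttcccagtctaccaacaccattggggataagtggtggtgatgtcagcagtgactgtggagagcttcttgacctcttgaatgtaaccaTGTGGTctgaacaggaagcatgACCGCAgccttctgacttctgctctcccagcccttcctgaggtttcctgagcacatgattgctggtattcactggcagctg

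A further set of peaks, picked once their values were known, lies in the genes or up to 70.4 kb from them and holds TGTGGT. They are among the stronger regions that are not at the TSS of a neighbouring gene, but not all such regions are shown. Peaks with TGTGGT that scored 36.1 upstream of Nfe2l2 and 34.2 downstream of Bach2 were left out. The intron 3 peak of Bach2 is such a region too, with a score of 51.5, but it held no TGTGGT and is not shown.
Maff, intron 1, chr15:79181390-79181590: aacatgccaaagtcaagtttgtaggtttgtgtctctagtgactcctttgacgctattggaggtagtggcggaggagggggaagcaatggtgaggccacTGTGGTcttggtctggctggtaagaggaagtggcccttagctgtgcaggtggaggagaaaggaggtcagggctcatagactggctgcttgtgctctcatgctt
Bach2, intron 1, chr4:32336196-32336396: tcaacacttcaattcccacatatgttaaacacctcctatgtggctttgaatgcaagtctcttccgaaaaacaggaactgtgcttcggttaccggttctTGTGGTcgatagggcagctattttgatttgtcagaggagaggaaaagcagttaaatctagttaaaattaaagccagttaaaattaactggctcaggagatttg
Nfe2l2, farther upstream, chr2:75612853-75613053: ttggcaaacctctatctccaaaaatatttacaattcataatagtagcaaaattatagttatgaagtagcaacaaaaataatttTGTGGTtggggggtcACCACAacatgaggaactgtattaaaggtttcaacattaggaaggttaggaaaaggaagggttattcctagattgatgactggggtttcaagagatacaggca

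The number of peaks differed widely between the 7 genes. Bach2 had 16 peaks and Nfe2l2 12, Mafg and Maff had 8 each, Mafk and Bach1 had 4 each, and Maf had a single one. Bach2 and Nfe2l2 together held 28 of the 53 peaks. By the same rule, 72.1% of all protein-coding genes had a peak, so that the presence of a peak at all 7 genes has to be read against a background in which most genes have one. The median over all 22380 protein-coding genes was 2 peaks, and 5 peaks marked the upper quartile. The counts of Bach2 and Nfe2l2 lay at the percentiles 99.7 and 98.5 of all protein-coding genes, that of Mafg and Maff at 92.7, that of Mafk and Bach1 at 72.6, and that of Maf at 41.0.

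A longer gene has a wider window, and Bach2 spans 347 kb, against 8.48 kb for Mafg and 34.4 kb for Bach1. Per 100 kb of gene and flanks, Nfe2l2 had the highest density of the 7 genes, with 5.24 peaks at the percentile 97.9 of all protein-coding genes. Mafg (3.84 peaks per 100 kb) and Maff (3.78) followed, and Bach2, with 2.92 at the percentile 85.7, came next. Mafk (1.89) and Bach1 (1.71) were lower and Maf (0.445) was last, and the median of all protein-coding genes was 0.942. With a single pooled list these orders have no replicate error, and neighbours such as Mafg and Maff, with 8 peaks each in windows of 208 and 212 kb, are not distinguished by them.

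**Figure D1:**
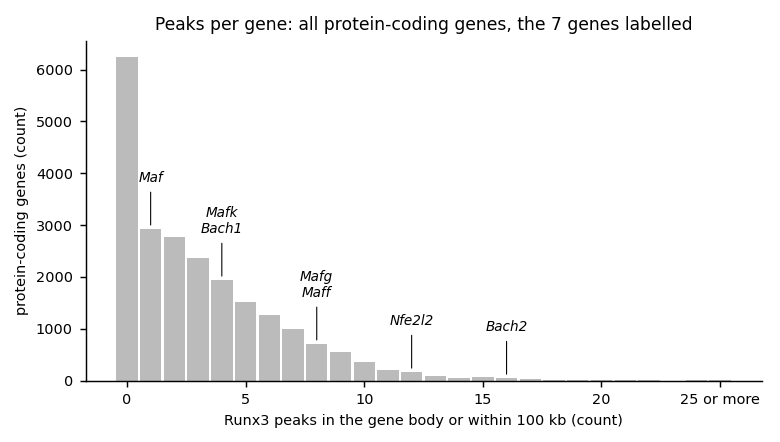
Number of Runx3 peaks in the gene body or within 100 kb (x axis, count) for all protein-coding genes (y axis, number of genes; grey bars). The 7 genes are labelled at their counts, from 1 peak for Maf to 16 for Bach2, and the last bar pools genes with 25 peaks or more.

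Not every peak in these windows is nearest to the gene it was counted for. For 18 of the 53 peaks the closest annotated start site, coding or not, was that of the gene itself, or 34.0% (95% interval by Wilson's method, 22.7% to 47.4%). These intervals cover counting error alone, and peaks around 1 gene share a locus. When TSS of protein-coding genes alone were used, this held for 29 peaks. A peak centre within 1 kb of any TSS was found for 20 of the 53 peaks, or 37.7%, against 38.0% of all peaks. Of these 20 peaks 7 lay at a TSS of one of the 7 genes and 13 at a TSS of another annotated entry. The peaks at the genes' own TSS scored between 3.69 and 21.5, with a median of 8.49, and 0 of them reached 23.2, the upper quartile of the list. The 13 peaks at other TSS scored up to 73.9, with a median of 14.4, and 5 of them reached the upper quartile. Among these 5 is a peak inside Mafg, with a score of 59.1, placed here by a pseudogene entry of the same symbol. The remaining 33 peaks had a median score of 12.7, and 11 of them reached the upper quartile. Of all peaks 25.4% reached it. In the whole list the median score was 12.4 within 1 kb of any TSS and 12.0 farther away. The peaks at the genes' own TSS number only 7, and the difference in score was not tested.

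**Figure D2:**
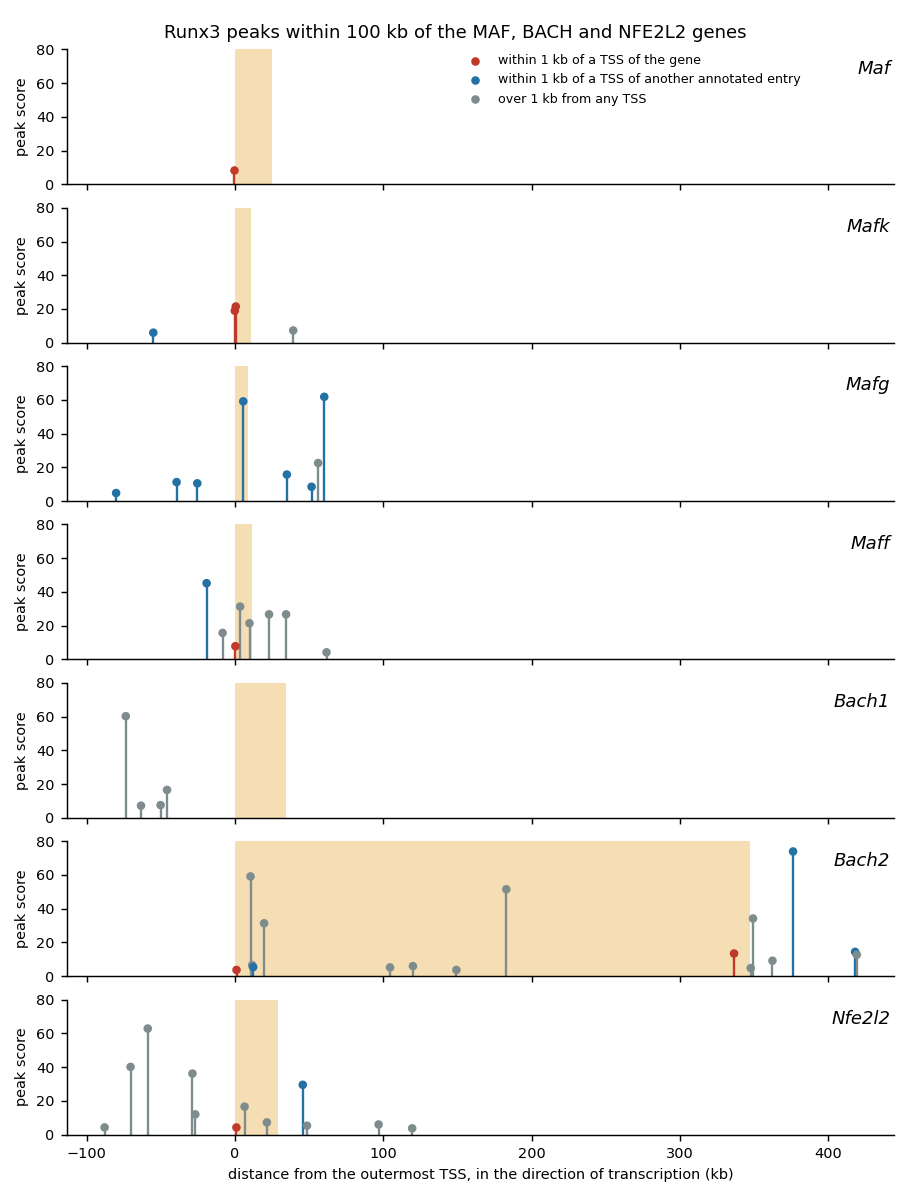
Runx3 peaks of the 7 genes by distance from the outermost TSS in the direction of transcription (x axis, kb) and peak score (y axis, unit not stated). Shading marks the gene body, red marks peaks at most 1 kb from a start site of that gene, blue those as close to another annotated entry, and grey all others. Red peaks score no higher than 21.5, and the tallest peaks of the Mafg, Maff and Bach2 windows are blue.

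Over all 53 peaks the score ran from 3.68 to 73.9 with a median of 12.7, and the median of the whole list was 12.1. A score of 23.2 or higher was found for 16 of the 53 peaks, or 30.2% (Wilson 95% interval 19.5% to 43.5%), beside 25.4% of all peaks. At least 1 such peak was present at 5 of the 7 genes, all but Maf and Mafk, while 43.2% of all protein-coding genes had one within 100 kb. At the low end 15 of the 53 peaks scored below the lower quartile of the list, 7.2, and 7 of these belonged to Bach2 and 5 to Nfe2l2. Of all peaks 27.0% scored 7.2 or lower, so peaks at the low end are no trait of these genes. Bach2 and Nfe2l2 had peaks at either end of the range of scores, but they also held 28 of the 53 peaks.

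**Figure D3:**
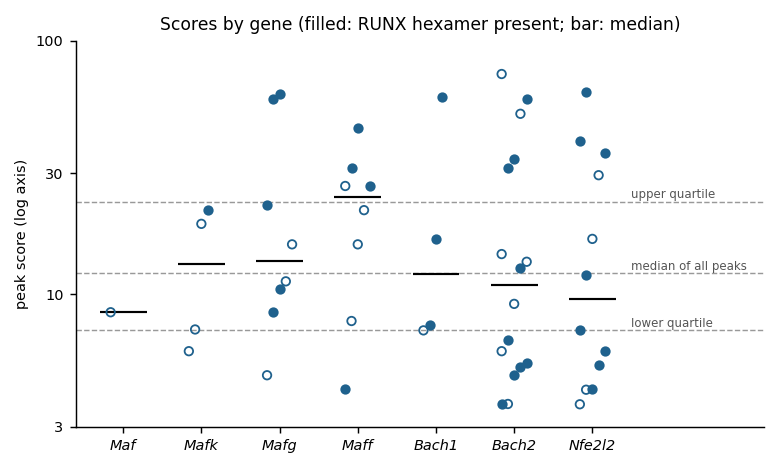
Score of every peak (y axis, log scale, unit not stated) at each of the 7 genes (x axis). Filled points are peaks with the RUNX hexamer TGTGGT, open points peaks without it, black bars are medians, and dashed lines are the quartiles and median of all peaks. The medians run from 8.49 for Maf to 24.1 for Maff, and 16 points lie at or above the upper quartile.

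Among the large MAF genes only Maf was examined as a member. Maf (ENSMUSG00000055435.6, chromosome 8, 118206842 to 118231694, minus strand) encodes c-MAF. Its single peak, from 118231906 to 118232207, had its centre 362 bp before the TSS, with a score of 8.49 at the percentile 34.4. The peak was 302 bp wide, held TGCGGT once and held no TGTGGT. No TSS of another protein-coding gene lay within 100 kb, which makes Maf the most isolated of the 7 genes by this count.

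The small MAF gene Mafk (ENSMUSG00000018143.4, chromosome 5, 140267467 to 140278607, plus strand) had a pair of peaks at its TSS, separated by a gap of 274 bp. The first, from 140267161 to 140267560, had its centre 107 bp before the TSS and a score of 18.95, and the second, from 140267835 to 140268192, was centred 525 bp downstream in intron 1 and scored 21.5. The intronic peak alone held TGTGGT, 25 bp from its centre. These were the highest scores among the peaks at a TSS of one of the 7 genes. The other peaks of the Mafk window were weaker. The peak 55.1 kb upstream scored 5.96 and lay 99 bp from the TSS of Micall2, and the one downstream of Mafk scored 7.26 and lay 3954 bp from the TSS of Psmg3.

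For the genes whose strongest peak is elsewhere or is 1 of a pair at the TSS, the peak closest to a TSS of the gene is shown in the same way where it lies within 1 kb. The weaker Bach2 peak 777 bp from a TSS is not shown. The stretch at Bach2 is limited to 68 bases because exon 6 also belongs to a noncoding transcript, and its bases were left out with those of UTRs. It does not reach the peak centre, and the TGCGGT of the Maff and Bach2 peaks lies outside the stretches shown.
Mafk, upstream of the TSS, chr5:140267260-140267460: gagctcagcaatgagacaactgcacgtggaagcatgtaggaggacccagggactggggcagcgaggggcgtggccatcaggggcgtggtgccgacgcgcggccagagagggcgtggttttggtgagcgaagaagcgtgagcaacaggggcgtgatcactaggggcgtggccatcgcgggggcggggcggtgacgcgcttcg
Maff, intron 1 at the TSS, chr15:79178185-79178351: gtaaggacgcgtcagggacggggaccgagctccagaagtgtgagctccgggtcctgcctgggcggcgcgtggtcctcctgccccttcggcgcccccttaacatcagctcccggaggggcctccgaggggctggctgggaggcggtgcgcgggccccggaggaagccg
Bach2, intron 6 beside exon 6, chr4:32662422-32662489: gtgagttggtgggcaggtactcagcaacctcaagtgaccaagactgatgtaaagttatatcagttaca
Nfe2l2, intron 1 near the TSS, chr2:75541617-75541817: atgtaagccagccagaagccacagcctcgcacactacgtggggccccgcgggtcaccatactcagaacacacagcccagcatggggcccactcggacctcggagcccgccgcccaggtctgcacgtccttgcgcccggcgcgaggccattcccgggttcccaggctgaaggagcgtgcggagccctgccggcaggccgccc

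Mafg (ENSMUSG00000051510.7, chromosome 11, 120486431 to 120494914, minus strand) lies in a gene-dense region, with the TSS of 19 other protein-coding genes within 100 kb. None of its 8 peaks was centred within 1 kb of a TSS of the protein-coding gene. A single peak lay inside the gene, from 120489042 to 120489633, in the 3' UTR part of exon 3 of 3. It scored 59.1, at the percentile 95.4, and held TGTGGT once and the antioxidant element core TGACNNNGC once. The annotation places a pseudogene entry under the same symbol inside this exon, and the peak centre was 158 bp from the start of that entry and 2125 bp from the nearest TSS of the protein-coding gene. The strongest peak of the window, from 120434226 to 120435157 with a score of 61.8, was centred 124 bp from the TSS of P4hb, which encodes protein disulfide isomerase. The peaks with scores of 15.7, 11.2 and 4.79 lay 72 bp from the TSS of Anapc11, 9 bp from that of Aspscr1 and 12 bp from that of Stra13. Of the 8 peaks 7 were within 1 kb of a TSS of another annotated entry.

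Maff (ENSMUSG00000042622.7, chromosome 15, 79177971 to 79189502, plus strand) encodes the third small MAF protein and had the highest median score of the 7 genes, 24.1. Of its 8 peaks 3 were centred inside the gene. The peak over the TSS region, from 79177691 to 79178811, was the widest of the 53 peaks, with 1121 bp, but scored only 7.84 and held no TGTGGT. The peak from 79181235 to 79181682, in intron 1 and 2967 bp downstream of a TSS, scored 31.3 and held TGTGGT 2 times and the PU.1 octamer GAGGAAGT once. The peak in intron 2 scored 21.5. Upstream of Maff the peak from 79169454 to 79169820 scored 15.7, at 8334 bp, and the strongest of the window, with 45.2, was centred 23 bp from the TSS of the phospholipase gene Pla2g6. Downstream, a pair of peaks with a score of 26.7 each lay in the body of Tmem184b. The third downstream peak scored 4.23.

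Bach1 (ENSMUSG00000025612.5, chromosome 16, 87699190 to 87733591, plus strand) carried 0 peaks over its body and 0 within 1 kb of its TSS. All 4 of its peaks lay upstream, between 45.8 and 73.6 kb from the gene. The strongest, from 87625102 to 87625990, scored 60.2, at the percentile 95.6, and held TGTGGT 2 times and the AP-1 core TGACTCA once. Its centre lay 73644 bp from the nearest TSS of Bach1 and 71971 bp from that of the protein-coding gene ORF63, so that the distances hardly differ, and a U6 snRNA entry was the closest TSS of any kind. The peak closest to Bach1 scored 16.5, and the ones between scored 7.2 and 7.53. TGTGGT was present in 3 of the 4 peaks.

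Bach2 (ENSMUSG00000040270.9, chromosome 4, 32325779 to 32673083, plus strand) had 10 of its 16 peaks inside the gene and the other 6 downstream of it. Near the first exons lay a peak 777 bp downstream of a TSS, from 32326579 to 32327079, which scored 3.69, at the percentile 4.7. In the same intron 1, the peak from 32336033 to 32336504 was centred 1529 bp downstream of the start of a noncoding Bach2 transcript and scored 59.1, at the percentile 95.4. It held TGTGGT 28 bp from its centre. The next peaks followed at gaps of 716 and 297 bp, with scores of 6.57 and 5.36, and a peak with a score of 31.3 and TGTGGT 2 times lay 6938 bp beyond them.

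Further into Bach2 the 3 peaks of intron 2 scored 5.18, 5.96 and 3.68, below the lower quartile of the list. In contrast, the peak of intron 3, from 32508492 to 32509086, scored 51.5, at the percentile 93.5, without TGTGGT or TGCGGT. It was centred 4379 bp downstream of the start of shorter Bach2 transcripts that begin at exon 3. The peak over exon 6 of 7, a coding exon, scored 13.4 and was centred 483 bp from the start of a noncoding Bach2 transcript. Behind the 3' end of the gene, at 2087 bp, the peak from 32674737 to 32675603 scored 34.2 and held TGTGGT 3 times. The strongest peak of the window and of all 53, from 32701927 to 32702447 with 73.9, was centred 239 bp from the TSS of Casp8ap2 and 29.1 kb from the end of Bach2, and it held no TGTGGT. It held TGACGT, the hexamer of the DC factor zDC.

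Nfe2l2 (ENSMUSG00000015839.6, chromosome 2, 75513570 to 75542698, minus strand) encodes NRF2. In its body were 3 peaks, all in intron 1, with scores of 4.2, 16.5 and 7.2. The weakest of them, from 75541583 to 75541852, was centred 829 bp downstream of the TSS. The stronger peaks of Nfe2l2 lay outside the gene. Upstream, the peaks from 75571147 to 75571614, from 75601220 to 75601830 and from 75612637 to 75613582, at 28.7, 58.8 and 70.4 kb from the gene, scored 36.1, 62.8 and 40.1. All held TGTGGT, the farthest of them 4 times, which is the most of any of the 53 peaks. The middle peak also held TGCGGT. The nearest protein-coding TSS was that of Nfe2l2 for the first and the second of these peaks and that of Agps, at 57125 bp, for the third. Downstream, the peak with a score of 29.5 was centred 345 bp from the TSS of Hnrnpa3 and held TGACNNNGC 3 times. The remaining 5 peaks of the window scored between 3.68 and 11.96.

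In terms of gene structure, 5 of the 7 genes had a peak within 1 kb of one of their own TSS, all but Mafg and Bach1. The share over all protein-coding genes was 24.9%. The gene body held a peak centre in 5 of the 7 genes, all but Maf and Bach1, against 23.1% of all protein-coding genes. The genes differ in length and number of transcripts, and no test of these counts was made.

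TGTGGT was present on either strand in 30 of the 53 peaks, or 56.6% (Wilson 95% interval 43.3% to 69.0%), and the background was 54.0% of all peaks. Windows of the same width 10 kb downstream, that is toward higher coordinates, held it in 16 of 51 cases, or 31.4%, as did 31.4% of the windows upstream. TGCGGT was present in 13 of the 53 peaks, or 24.5% (14.9% to 37.6%), in 3.92% of the windows on each side and in 20.1% of all peaks. The peaks are richer in G and C than the windows, with medians of 51.3% against 46.5% downstream and 45.5% upstream, and the part of base composition in these shares was not tested. Both hexamers occurred in 4 peaks, and 14 peaks had neither. TGTGGT or TGCGGT was thus present in 73.6% of the 53 peaks (60.4% to 83.6%), beside 66.5% of all peaks.

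TGTGGT was rarer at TSS. Of the 20 peaks within 1 kb of any TSS 7 held it, or 35% (18.1% to 56.7%), and of the 33 others 23 did, or 69.7% (52.7% to 82.6%). The whole list showed the same split, with 34.4% and 66.1%. At the genes' own TSS the intron 1 peak of Mafk was the single one of 7 with TGTGGT, while TGCGGT was in 3, those of Maf, Maff and exon 6 of Bach2. Among the peaks with a score of 23.2 or higher 12 of 16 held TGTGGT, or 75% (50.5% to 89.8%), and among the weaker ones 18 of 37, or 48.6% (33.4% to 64.1%). In the whole list these shares were 65.0% and 50.3%.

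The elements that MAF, BACH and NRF2 proteins themselves recognise were searched in the same peaks. These are the AP-1 core TGACTCA, which MAF recognition elements contain, and the antioxidant element core TGACNNNGC. TGACTCA was present in 4 of the 53 peaks, or 7.55% (2.97% to 17.9%), against 9.5% of all peaks, and 2 of the 4 were Bach1 peaks. TGACNNNGC was present in 8 peaks, or 15.1% (7.85% to 27.1%), against 18.7% of all peaks. Windows downstream held TGACNNNGC in 21.6% and windows upstream in 9.8%, above and below the share in the peaks, with overlapping intervals. For the whole list the windows held it in 13.8% downstream and 13.6% upstream. TGACTCA was in 5.88% of the windows downstream and in 13.7% of those upstream. TGACGT was in 4 of the 53 peaks and GAGGAAGT, the octamer of the myeloid factor PU.1, also in 4, each 7.55%, beside 11.0% and 14.6% of all peaks. In the windows downstream and upstream TGACGT was in 5.88% and 0.0%, and GAGGAAGT in 0.0% and 1.96%. A match shows letters in the peak and not occupancy by another factor.

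**Figure D4:**
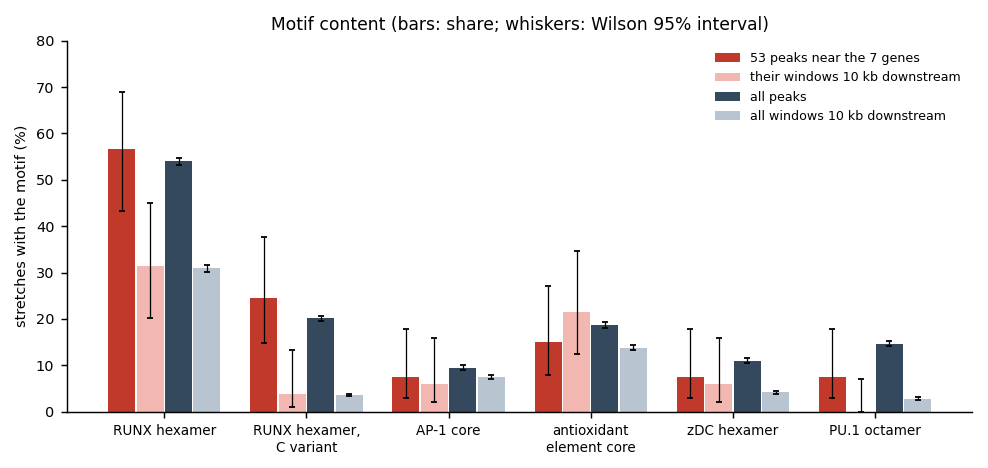
Share of stretches that hold each motif on either strand (y axis, percent) in the 53 peaks of the 7 genes, in windows of the same width 10 kb downstream, in all peaks and in their downstream windows; whiskers are Wilson 95% intervals. The motifs are named on the x axis as in the text. The RUNX hexamer reaches 56.6% of the 53 peaks and 31.4% of their windows.

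Related genes were counted by the same rule. The 7 other MAF and cap'n'collar genes and partners that were counted had between 2 and 11 peaks within 100 kb, with a median of 6 beside 2 over all protein-coding genes. A peak within 1 kb of a TSS was present at 3 of them, beside 24.9% of all protein-coding genes. Keap1, the inhibitor of NRF2, had 11, but 0 of them lay in its body or within 1 kb of its TSS, and 0 had their nearest TSS at Keap1. Nfe2l1 and Cul3, the latter encoding the ubiquitin ligase scaffold that acts with KEAP1, had 6 each, with TSS peaks of at most 5.36 and 9.84. Nrl also had 6, with 0 of them nearest to its TSS. Nfe2 had a TSS peak with a score of 21.5.

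Of 22 redox and haem genes known as targets of NRF2 or BACH1, 20 had a peak within 100 kb, beside 72.1% of all protein-coding genes, and the median was 2.5 peaks. A peak within 1 kb of a TSS was present at 8 of the 22, beside 24.9%. Most peaks were found for Taldo1, with 11, Txnrd1, with 9, and Blvrb and Fth1, with 8 each. Fth1, which encodes the ferritin heavy chain, had the strongest TSS peak of this list, with a score of 33.1. Hmox1, the haem oxygenase gene that BACH1 represses, had 3 peaks, 0 of them within 1 kb of its TSS or nearest to it. Txn1 and Slc40a1 had 0.

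Of 16 macrophage genes 12 had a peak within 100 kb (72.1% of all protein-coding genes did), 2 had one within 1 kb of a TSS (24.9% did), and the median of 2 peaks equalled that of all protein-coding genes. Axl had 8 peaks, 0 of them nearest to its TSS, and Cd68 and Adgre1, matched under its older symbol Emr1, had 7 each. Mertk and Cd68 were the genes with a TSS peak, with scores of 26.7 and 14.8. The complement genes C1qa, C1qb and C1qc and the adhesion gene Vcam1 had 0 peaks. As a check of the cell type label, all 8 DC marker genes of the list had a peak within 100 kb, but so did 4 of 5 marker genes of other cells, and expression was not measured, so the list gives no check of the sort.

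**Figure D5:**
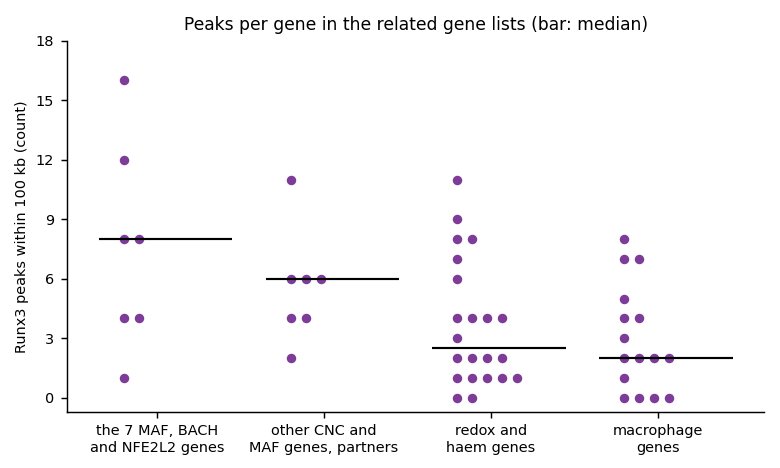
Runx3 peaks within 100 kb (y axis, count) of each gene (points) of the 7 MAF, BACH and NFE2L2 genes, of 7 related genes and partners, of 22 redox and haem genes and of 16 macrophage genes; bars are medians, at 8, 6, 2.5 and 2 peaks. The 7 genes range from 1 to 16 peaks, and genes at 0 are present in the redox and macrophage lists.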

How the data were processed

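Runx3 ChIP-seq of splenic CD4+ DC was analysed from 1 deposited list. Base calling by the authors used CASAVA 1.8, bowtie placed the 50 bp reads on mm9, and MACS2 compared both Runx3 samples with both inputs. Versions of bowtie and MACS2 and the threshold are not given in the sources used here. Each deposited score belongs to the pooled call. Depth per sample was not analysed here, and a missing peak means that none was listed.

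Bases were read from NCBIM37, which is mm9, and gene models from GENCODE M1, counting positions from 1. Of the entries named Mafg the protein-coding one was used. Exon numbers follow the longest coding transcript. Windows 10 kb away were dropped where they met a peak or unsequenced bases. No test was made on the pooled list. Genes, lists and printed peaks were chosen with earlier results of these data known. Named were the 7 genes with their peaks, genes at the nearest TSS, and from each list the 3 genes with most peaks and those with none; other genes of the lists were named after their values were seen. A listed gene is not reported here and entered no list count. Alternatives covered distances, score limits, assignment rules, joined peaks and hexamers. Scripts in Python 3.11.15 (pandas 2.3.3, numpy 2.4.6, matplotlib 3.10.9, scipy 1.17.1) were tested on simulated data.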

Additional observations from a re-analysis of the deposited data

How the results depend on the processing

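Of 35 alternative settings 25 left the value within 1.5 times the main count or within the interval of the main share or median, and 10 moved it. The settings include score limits, which can only lower the count of peaks, and windows beside the peaks, which serve as background. The tally is therefore no measure of how stable the results are. The count of 53 peaks changed most with the assignment. It was 13 with a basal domain and extension modelled on GREAT (5 kb upstream, 1 kb downstream, extended by at most 1000 kb). Under this rule Bach2 and Mafg had 0 peaks. Noncoding entries also limited these domains, such as U6 snRNA at Bach1 and Nfe2l2. GREAT itself was not run, so these values are not its result. The count was 18 when the nearest TSS had to be that of the gene, 18 in gene bodies and 28 within 20 kb. It was 27 for peaks at or above the list median and 16 for those at or above the upper quartile. The share with TGTGGT, 56.6%, was 75% for peaks at or above the upper quartile and 31.4% in the windows on either side. When TGCGGT was allowed too the share was 73.6%, beside 66.5% of all peaks. The genes with a peak numbered 5 to 7 under the alternatives, and the genes with a TSS peak 4 with 1 TSS per gene and 6 within 5 kb. The median score stayed between 10.6 and 15.7.

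No paired analysis was possible because the list holds 1 value for the pooled samples, and for the same reason leaving out a replicate was not run. The depth behind single peaks is unknown here.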
